A study of Mus musculus with 18 samples.

Results

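The 9 genes described here belong to the cytosolic heat shock system and were followed through 18 spinal cord libraries: the HSP70 genes Hspa1a, Hspa1b and Hspa8, the J-domain gene Dnajb1, the HSP110 gene Hsph1, the small heat shock gene Hspb1, the HSP90 gene Hsp90aa1, the HSP90 cochaperone gene Ahsa2 and the BAG-domain gene Bag3. They were taken by name, with earlier results of these data known. They are 9 of the 54446 genes in the count table, and all 9 passed the filter on low counts that left 20635 genes for testing. The libraries hold total RNA of the whole spinal cord from untreated mice aged 10 months, with 6 genotypes of 3 mice. The controls, on C57BL/6, were non-transgenic (NTg). All other mice were heterozygous for human sequence: hATXN2-Q22 (Q22) or hATXN2-Q33 (Q33), which encode ataxin-2 with a tract of 22 or 33 glutamines, hTDP-43 (TDP-43), or hTDP-43 joined with either ataxin-2 form (Q22;TDP-43 and Q33;TDP-43). Ataxin-2 and TDP-43 are RNA-binding proteins tied to amyotrophic lateral sclerosis, a disease of motor neurons. Reads from the human knock-in transcripts were not used here, and the sex of the mice was not given in the sources used here.

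HSP70 proteins bind exposed hydrophobic stretches of unfolded proteins in a cycle driven by ATP. J-domain proteins hand clients to them and start ATP hydrolysis, HSP110 and BAG proteins release the nucleotide, small heat shock proteins hold unfolded clients, and HSP90 with its cochaperones finishes the folding of kinases and receptors. Hspa8 and Hsp90aa1 are made in unstressed neurons at high levels, whereas Hspa1a and Hspa1b are classical targets of heat shock factor 1, which binds inverted repeats of the letters GAA, and are nearly silent in unstressed tissue.

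The stretches before the transcription starts are shown for Hspa1a, Hspa1b, Dnajb1 and Ahsa2, the 4 genes in which the TDP-43 and NTg mice did not overlap, and for Hspb1, which holds a pair of repeats. Each line gives 250 bases that end at the base before the start, 5′ to 3′ on the gene's strand, from RefSeq on GRCm38.p6. They lie at chr17:34972157-34972406 (minus strand) for Hspa1a, chr17:34959239-34959488 (minus) for Hspa1b, chr8:83607925-83608174 (plus) for Dnajb1, chr11:23498040-23498289 (minus) for Ahsa2 and chr5:135887669-135887918 (plus) for Hspb1. Capitals mark every match to GAANNTTC or TTCNNGAA, searched on both strands.
Hspa1a: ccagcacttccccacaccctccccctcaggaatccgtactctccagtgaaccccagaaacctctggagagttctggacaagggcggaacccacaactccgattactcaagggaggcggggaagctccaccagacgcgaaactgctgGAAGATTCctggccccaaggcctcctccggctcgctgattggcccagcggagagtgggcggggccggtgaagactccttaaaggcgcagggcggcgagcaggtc
Hspa1b: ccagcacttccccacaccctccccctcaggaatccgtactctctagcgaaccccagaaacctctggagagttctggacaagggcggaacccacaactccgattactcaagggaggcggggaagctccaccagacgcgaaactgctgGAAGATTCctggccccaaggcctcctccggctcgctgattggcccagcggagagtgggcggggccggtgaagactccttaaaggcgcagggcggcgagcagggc
Dnajb1: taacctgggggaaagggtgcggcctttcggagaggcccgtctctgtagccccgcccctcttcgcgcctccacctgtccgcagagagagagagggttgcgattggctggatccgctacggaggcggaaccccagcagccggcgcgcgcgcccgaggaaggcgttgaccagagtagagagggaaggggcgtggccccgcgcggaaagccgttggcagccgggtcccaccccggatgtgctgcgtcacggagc
Ahsa2: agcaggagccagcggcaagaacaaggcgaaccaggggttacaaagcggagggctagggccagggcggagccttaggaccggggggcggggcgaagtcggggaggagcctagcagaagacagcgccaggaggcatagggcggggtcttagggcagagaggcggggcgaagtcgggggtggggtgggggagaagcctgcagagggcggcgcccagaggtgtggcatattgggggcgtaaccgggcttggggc
Hspb1: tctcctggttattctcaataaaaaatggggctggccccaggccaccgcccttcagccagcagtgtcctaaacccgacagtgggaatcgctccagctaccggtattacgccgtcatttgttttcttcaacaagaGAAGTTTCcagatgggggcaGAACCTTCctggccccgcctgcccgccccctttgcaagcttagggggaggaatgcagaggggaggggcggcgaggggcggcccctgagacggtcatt

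RefSeq windows of 300 bases, from 250 before to 50 after a start, were found for 7 of the 9 genes (9 windows in all), and Hspa8 and Hsp90aa1 had no entry. Either repeat was present in 6 of the 9 windows, which belong to 5 genes, and in 15.1% of 32851 such windows of the mouse annotation. The first base of the match lay 104 bases before the start in both Hspa1a and Hspa1b, whose windows differed at 4 of 300 positions. Hspb1 had matches beginning at -117 and -97, and Bag3 had its match at 43 bases after the start. In the first Hsph1 window a match began at -33, and the longer form in which both repeats overlap began at 37 after the start as TTCTGGAAAGTTC. That longer form occurred in 0.603% of the windows. Neither repeat was found in the windows of Dnajb1 and Ahsa2. These matches are letters in a window and no measurement of binding.

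Close copies limit what a count can say for several of these genes. Hspa1a (ENSMUSG00000091971.3, chr17:34969190-34972156) and Hspa1b (ENSMUSG00000090877.3, chr17:34956436-34959238) lie side by side on the minus strand of mm10. Of all stretches of 100 bases in the longest GENCODE transcript, 56.5% in Hspa1a and 49.9% in Hspa1b also occurred in another gene, most of them in the other copy, and read pairs from such stretches can be lost or split. The share was 47.6% for Hsp90aa1 (ENSMUSG00000021270.13, chr12:110690605-110702728), mostly with Gm12346, 42.7% for Hspb1 (ENSMUSG00000004951.10, chr5:135887919-135889563), with Hsp25-ps1, and 32.1% for Hspa8 (ENSMUSG00000015656.17, chr9:40800984-40810087), mostly with Gm26825. Ahsa2 (ENSMUSG00000020288.13, chr11:23487882-23498030) shared 56.8%, nearly all with Usp34, which runs over 47.2% of its exon bases on the opposite strand. Counting was by strand per the file headers, which keeps those genes apart. No stretch was shared for Dnajb1 (ENSMUSG00000005483.10, chr8:83608193-83612653), Hsph1 (ENSMUSG00000029657.15, chr5:149614287-149636376) and Bag3 (ENSMUSG00000030847.8, chr7:128523616-128546981).

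Depth ran from 16061359 to 30978678 counts per library. Levels are given in CPM, that is, relative to each library's total after TMM correction for differences in composition. Summed markers placed the tissue as cord, with 3615 to 6881 CPM for 5 neuron genes and 9605 CPM or more for 5 oligodendrocyte genes in every library, while 5 skeletal muscle genes summed to at most 9.14 CPM. Several library properties moved with genotype. Mitochondrial ribosomal RNA took 26.1% ± 2.70 of the counts in Q33;TDP-43 (SD, n = 3), and the other groups had means of 17.7% to 20.4%. The neuron sum was 5266 to 6881 CPM in Q33;TDP-43 and at most 4551 CPM in all other libraries, and 3 of its 5 genes rose against NTg (Snap25, Tubb3 and Eno2, by 0.62, 0.75 and 0.50 on the log2 scale) while Syt1 fell by 0.88. Rbfox3 hardly moved, with means of 86.4 CPM in NTg and 92.2 CPM in Q33;TDP-43. Most of the sum was Snap25, with a mean of 4843 CPM in Q33;TDP-43. The microglia sum of 5 genes was 94.81 to 116.3 CPM in Q33;TDP-43 against 116.2 to 175.4 CPM elsewhere, and the oligodendrocyte sum was the lowest there without being separate. The mean log2 CPM of caudal Hox genes, which mark the lower cord, ran from -3.67 to 3.52 over the libraries. It was 0.05 to 3.52 in Q33;TDP-43, without overlap with NTg (-2.77 to -1.5), Q22 (-2.66 to -1.22) or TDP-43 (-3.38 to -2.06). The ranges of Q33 (-3.67 to 2.68) and Q22;TDP-43 (-3.36 to 3.495) were wide and overlapped with it. The count of mice with Y-linked genes above 10 CPM was 3 in Q22, 2 each in Q33 and TDP-43, 1 in each double knock-in and 0 in NTg. Their part in the results was tested only as far as the fits named below go. TDP-43 replicate 2 stood apart for several of the genes described here, and estimates for Hspa1a, Hspa1b, Dnajb1 and Ahsa2 that rest on that group are also given without it.

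Among the 9 genes, mean levels over the 18 libraries, per kilobase of exon, spanned a wide range. Hspa8 averaged 329.5 CPM per kilobase and Hsp90aa1 232.5, and together they made up most of the summed level of the 9 genes (51.3% and 36.2%). Hsph1 averaged 44.97 CPM per kilobase, Bag3 12.2, Dnajb1 8.59, Hspb1 6.18 and Ahsa2 5.85. At the bottom stood the inducible HSP70 genes, Hspa1a with 1.58 and Hspa1b with 1.02 CPM per kilobase.

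**Figure D1:**
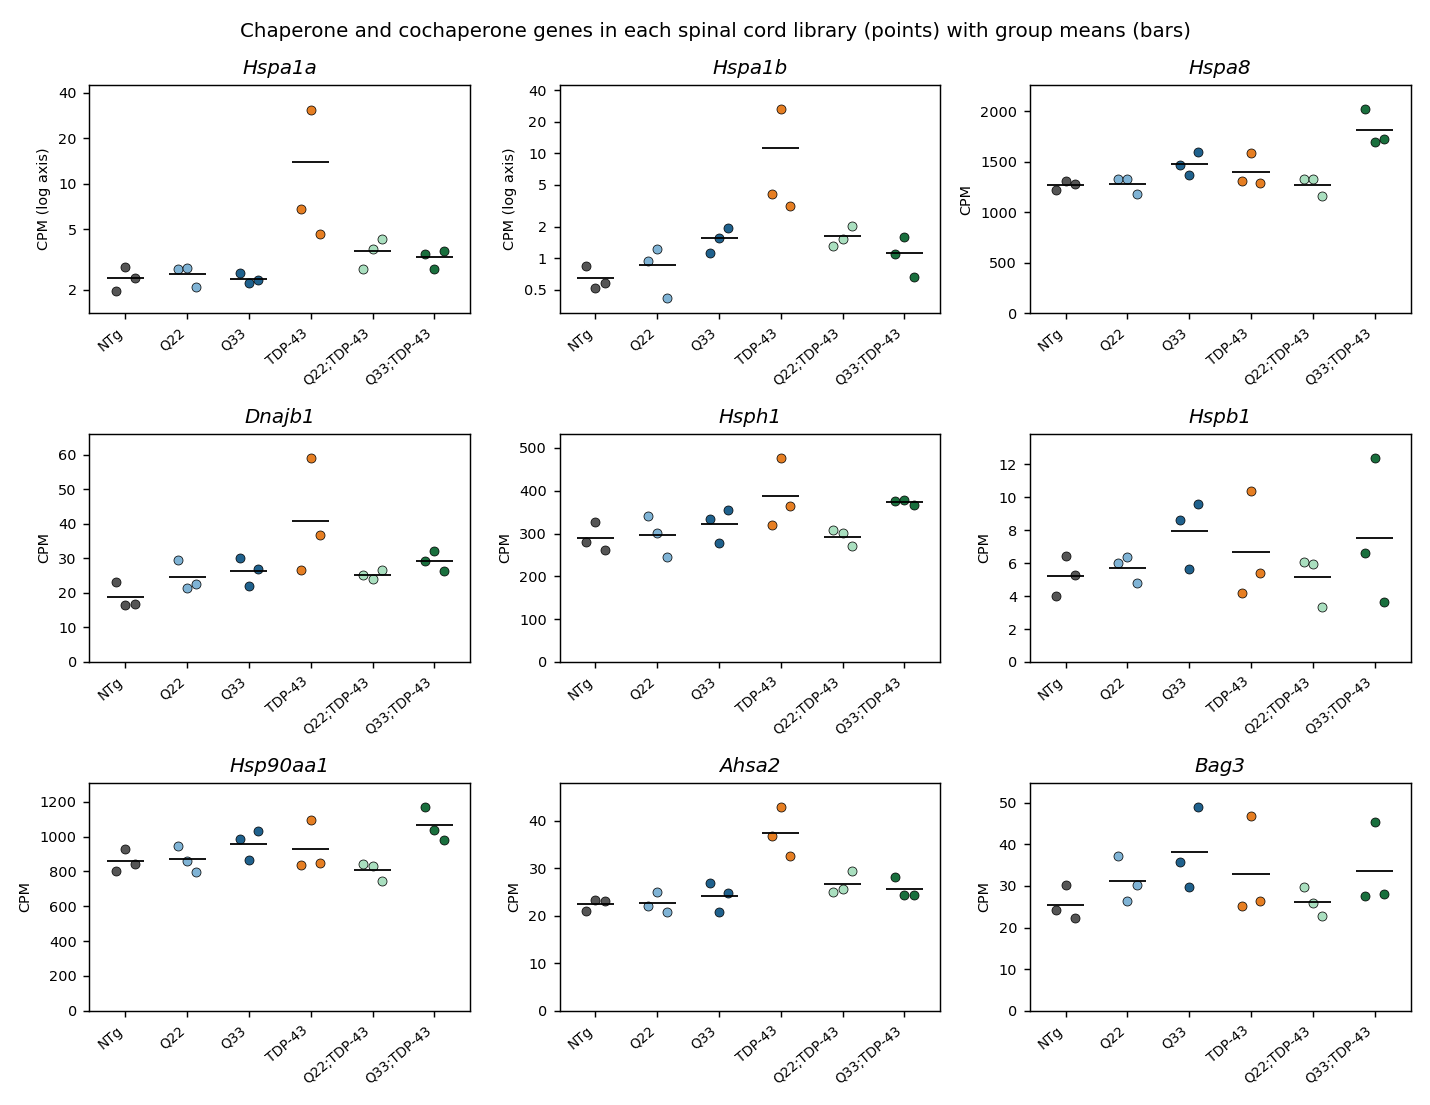
CPM of each of the 9 genes (y axis, logarithmic for Hspa1a and Hspa1b, from 0 for the others) in 18 spinal cord libraries grouped by genotype (x axis). Points are single mice and bars are means of 3. Hspa1a, Hspa1b and Ahsa2 are high in the 3 TDP-43 mice, with replicate 2 at the top, and Hspa8 is highest in the 3 Q33;TDP-43 mice.

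The inducible HSP70 genes were low in all groups but TDP-43. Hspa1a stood at 1.96, 2.81 and 2.40 CPM in NTg, 2.74, 2.77 and 2.10 in Q22, and 2.57, 2.20 and 2.33 in Q33. In TDP-43 mice it stood at 6.79, 30.6 and 4.66 CPM, in Q22;TDP-43 at 2.74, 3.73 and 4.33, and in Q33;TDP-43 at 3.45, 2.73 and 3.62. All 3 TDP-43 mice lay above the other 15, and replicate 2 was 4.50 times the next mouse. These levels rest on 49 to 116 counts in every library but TDP-43 replicate 2, which had 909.

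Hspa1b, the neighbouring copy, was also highest in TDP-43. It stood at 0.844, 0.521 and 0.578 CPM in NTg, 0.944, 1.24 and 0.419 in Q22, and 1.11, 1.57 and 1.95 in Q33. The TDP-43 mice had 4.10, 26.6 and 3.12 CPM, the Q22;TDP-43 mice 1.31, 1.54 and 2.03, and the Q33;TDP-43 mice 1.09, 1.61 and 0.663. Again the TDP-43 mice were the highest 3 of 18, without overlap, and replicate 2 was 6.49 times the next. Counts were between 10 and 77 outside TDP-43 replicate 2 and 791 in it. The Q33 and Q22;TDP-43 mice also lay above all NTg mice, with means of 1.55 and 1.63 CPM against 0.648 CPM.

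The share of the pair's counts that came from Hspa1b differed as well. In NTg it was 30.1%, 15.6% and 19.4%, and in TDP-43 mice 37.6%, 46.5% and 40.1%. The groups did not overlap in value. The Wilson 95% interval of TDP-43 replicate 1, the lowest of its group, was 30.99% to 44.78% and overlapped with that of NTg replicate 1, the highest control, at 20.8% to 41.4%, whereas that of TDP-43 replicate 2 lay at 44.2% to 48.9%. Q33 replicates 2 and 3 had 41.7% and 45.5%, similar to the TDP-43 mice, at totals of only 84 and 112 counts. Intervals of this kind cover counting error only.

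Ahsa2, a paralogue of the HSP90 ATPase activator Ahsa1, followed the inducible HSP70 genes at a level with little spread between mice. It stood at 21.1, 23.4 and 23.2 CPM in NTg and at 36.7, 42.9 and 32.6 in TDP-43. The other 12 mice had 20.8 to 29.4 CPM, so the TDP-43 mice were again the highest 3. Its coefficient of variation within TDP-43 was 13.8%, against 103% for Hspa1a and 118% for Hspa1b.

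Dnajb1, the main stress-inducible partner of cytosolic HSP70, was less separated. It stood at 23.3, 16.4 and 16.8 CPM in NTg, 29.5, 21.4 and 22.5 in Q22, and 30.2, 22.1 and 27.0 in Q33. TDP-43 mice had 26.8, 59.1 and 36.8 CPM, Q22;TDP-43 mice 25.29, 24.01 and 26.59, and Q33;TDP-43 mice 29.4, 32.1 and 26.3. TDP-43, Q22;TDP-43 and Q33;TDP-43 each lay above NTg without overlap, and the TDP-43 mice overlapped with Q22, Q33 and Q33;TDP-43.

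**Figure D2:**
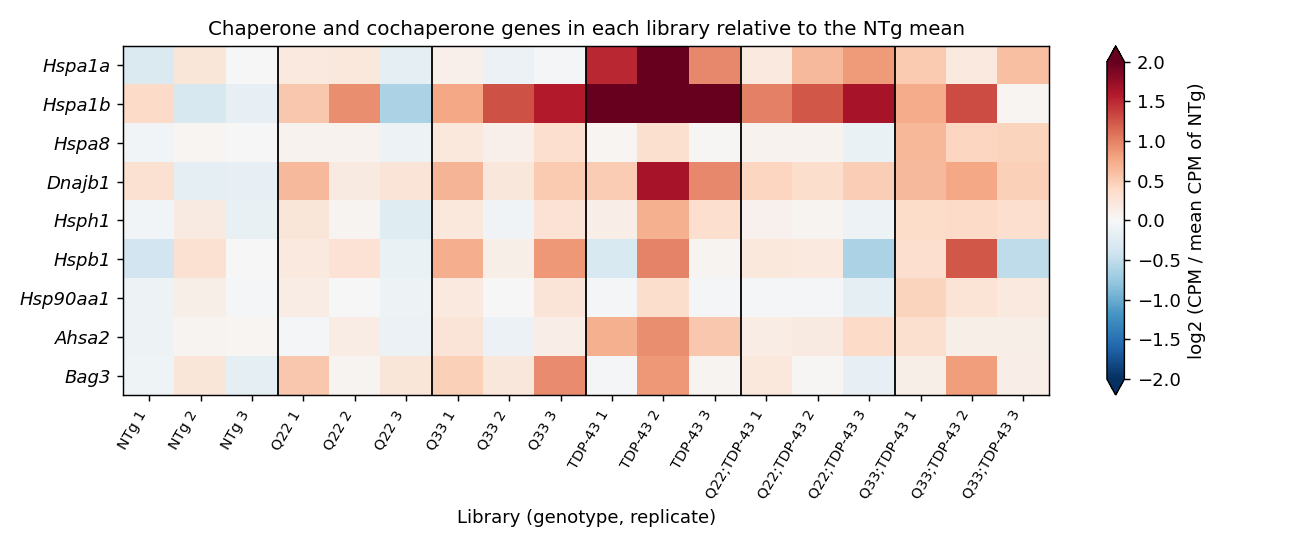
Log2 ratio of each library's CPM (18 columns, by genotype and replicate) to the mean of the 3 NTg mice for each of the 9 genes (rows). Colours are capped at -2 and 2. Hspa1a and Hspa1b are darkest in the TDP-43 columns, and Hspb1 and Bag3 vary between mice of one genotype.

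Hspa8, the constitutive HSP70, showed another order, with Q33;TDP-43 on top. It stood at 1219, 1310 and 1276 CPM in NTg, 1330, 1328 and 1178 in Q22, and 1470, 1365 and 1593 in Q33. TDP-43 mice had 1308, 1585 and 1293 CPM, Q22;TDP-43 mice 1326, 1326 and 1163, and Q33;TDP-43 mice 2020, 1700 and 1722. The 3 Q33;TDP-43 mice were the highest of 18. By mean the order ran from Q33;TDP-43 through Q33, TDP-43, Q22 and Q22;TDP-43 to NTg, and the last 4 of these overlapped with each other in their ranges.

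Hsp90aa1, the inducible form of cytosolic HSP90 and abundant in neurons, followed Hspa8 with more overlap. It stood at 803, 929 and 843 CPM in NTg, 948, 859 and 798 in Q22, and 984, 865 and 1029 in Q33. TDP-43 mice had 839, 1094 and 845 CPM, Q22;TDP-43 mice 845, 832 and 747, and Q33;TDP-43 mice 1169, 1038 and 983. The Q33;TDP-43 mice lay above NTg and above Q22;TDP-43 but among the values of Q33 and TDP-43.

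Hsph1 encodes HSP110, which exchanges the nucleotide of HSP70. It stood at 280, 328 and 262 CPM in NTg, 319, 476 and 365 in TDP-43, and 376, 379 and 366 in Q33;TDP-43. The Q33;TDP-43 mice lay above NTg and above Q22;TDP-43, which had 270 to 307 CPM, whereas Q22 and Q33 mice spread from 244 to 355 CPM. The highest mouse was TDP-43 replicate 2.

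Hspb1, a small heat shock protein found in motor neurons and glia, and Bag3, a cochaperone that couples HSP70 to small heat shock proteins and selective autophagy, separated no genotype from NTg. Hspb1 ran from 3.36 to 12.4 CPM, highest in Q33;TDP-43 replicate 2 and next in TDP-43 replicate 2 with 10.4 CPM. Its coefficient of variation within Q33;TDP-43 was 58.7%. Bag3 ran from 22.2 to 48.9 CPM, highest in Q33 replicate 3, then TDP-43 replicate 2 with 46.8 and Q33;TDP-43 replicate 2 with 45.4 CPM.

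The genotypes were compared with edgeR's quasi-likelihood test, in 1 fit of all 18 libraries, with p-values adjusted over the 20635 genes and called under 0.05. Comparisons that share a group, such as those against NTg, share its libraries. In whole cord, fewer cells of a type and less RNA per cell cannot be told apart, which touches every difference below.

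The first question was what human TDP-43 alone does to these genes. In TDP-43 against NTg, 0 of the 9 genes were called, where 0% of all genes were, and 5 of the 9 had an unadjusted p under 0.05, where 4.23% of all genes did. As a group, 4 of the 9 genes took the first 4 places of the 20635 by p. The 9 were chosen with earlier results of these data known, so these places and counts are no independent evidence. Hspa1b was 4.11 higher on the log2 scale (SE 0.67, adjusted p = 0.0934 with edgeR), Ahsa2 0.73 higher (SE 0.12, adjusted p = 0.0934), Hspa1a 2.57 higher (SE 0.48, adjusted p = 0.290) and Dnajb1 1.119 higher (SE 0.22, adjusted p = 0.323). Libraries of the 2 groups did not overlap in these 4 genes, where 3.64% of all genes were higher without overlap, and 0 were lower (4.17% of all genes). The remaining 5 genes had estimates between 0.11 and 0.42. The median of the 9 was 0.42, beside 0.01 over all genes tested.

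These differences depend on the tool and on single mice. With DESeq2, which called 6 genes in all, Hspa1b (adjusted p = 0.000102), Ahsa2 (0.000102), Dnajb1 (0.00136) and Hspa1a (0.00714) were among them, with estimates of 4.12, 0.74, 1.119 and 2.56. Without TDP-43 replicate 2 the edgeR estimates were 2.45 for Hspa1b (adjusted p = 0.305), 1.26 for Hspa1a (0.446), 0.75 for Dnajb1 (0.999) and 0.62 for Ahsa2 (0.448), and no gene of the table was called. Without TDP-43 replicate 1 the test called 3 genes in all, which were Hspa1a, Hspa1b and Dnajb1 (adjusted p = 0.0495, 0.0153 and 0.0153). Without replicate 3 it again called 3 genes, which were Hspa1a, Hspa1b and Ahsa2 (0.00844, 0.00844 and 0.0375). Summing the counts of both copies gave 10.9, 57.2 and 7.79 CPM in TDP-43 against 2.80 to 3.34 CPM in NTg, with an estimate of 3.07 (SE 0.51, adjusted p = 0.119). Y-linked genes were above 10 CPM in TDP-43 replicates 1 and 2 and in no NTg mouse. With the Y-linked level as a term in the fit, edgeR called no gene of the table in TDP-43 against NTg.

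TDP-43 replicate 2 ranked first of 18 for Hspa1a, Hspa1b, Dnajb1, Hsph1 and Ahsa2, second for Hspb1, Hsp90aa1 and Bag3 and had rank 5 for Hspa8. The same library had the highest sum of 18 immediate early genes, which respond to neuronal activity and to handling (202 CPM, range over libraries 125 to 202 CPM), and the second highest sum of 5 red blood cell genes (221 CPM, range 28.2 to 227 CPM). It was also the second deepest library, with 30791143 counts. Jund (53.2 CPM) and Jun (48.0 CPM) made the largest parts of its immediate early sum. Most of the immediate early genes, such as Fos and Egr1, were highest in replicate 2 among the TDP-43 mice. Fosb, Fosl2, Egr3, Egr4 and Atf3 were instead lowest in it. The part of these library properties in the chaperone levels was not tested.

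For the ataxin-2 knock-ins alone no call was made among the 9 genes. In Q22 against NTg, 0 of 9 were called (0% of all genes), all adjusted p-values were 0.908 or more with edgeR, and 0 of 9 had an unadjusted p under 0.05 (4.23% of all genes). No gene of the 9 was separate from NTg there, where 4.93% of all genes were higher and 5.63% lower without overlap. Y-linked genes were above 10 CPM in all Q22 mice and in no NTg mouse, so genotype and Y-linked expression cannot be told apart in that comparison. In Q33 against NTg, 0 of 9 were called (0% of all genes) and 3 of 9 had an unadjusted p under 0.05 (7.28% of all genes), namely Bag3 with 0.58 (SE 0.24, adjusted p = 0.658), Dnajb1 with 0.49 (SE 0.22, adjusted p = 0.666) and Hspa8 with 0.22 (SE 0.10, adjusted p = 0.674). The 95% interval for Hspa8 in Q33 ran from 0.0075 to 0.43 on the log2 scale. Hspa1b and Hspa8 lay above NTg without overlap and 0 of 9 below, beside 7.78% and 7.75% of all genes. In Q33 against Q22, 0 of 9 were called (0% of all genes), with 0 of 9 under an unadjusted p of 0.05 (2.14% of all genes), and 1 gene, Hspa8, was higher without overlap and 0 lower (3.82% and 4.13% of all genes).

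Joining the shorter tract to TDP-43 gave mean levels between those of NTg and TDP-43 for Hspa1a, Hspa1b, Dnajb1 and Ahsa2. In Q22;TDP-43 against NTg, 0 of 9 genes were called (0.00969% of all genes, with 0.00485% higher and 0.00485% lower) and 0 had an unadjusted p under 0.05 (2.30% of all genes), with Hspa1b at 1.29 (SE 0.71), Hspa1a at 0.60 (SE 0.49), Dnajb1 at 0.42 (SE 0.22) and Ahsa2 at 0.24 (SE 0.12), all with an adjusted p of 1 in edgeR. Hspa1b, Dnajb1 and Ahsa2 lay above NTg without overlap (3.20% of all genes) and 0 lay below (3.69%). In Q22;TDP-43 against TDP-43, 0 of 9 were called (0% of all genes), although 5 had an unadjusted p under 0.05 (2.41% of all genes) and all 9 estimates were below 0. Of the 9, 5 were lower without overlap (3.06% of all genes) and 0 higher (3.19%). Among them were Hspa1b at -2.81 (SE 0.60), Hspa1a at -1.97 (SE 0.46), Dnajb1 at -0.70 (SE 0.21), Ahsa2 at -0.49 (SE 0.12) and Hsph1 at -0.40 (SE 0.14), each with an adjusted p of 0.9999. Leaving out TDP-43 replicate 2, they were -1.15 for Hspa1b, -0.66 for Hspa1a, -0.33 for Dnajb1, -0.38 for Ahsa2 and -0.22 for Hsph1, with 0 of 9 genes and 0% of all genes called, and the estimates for Hspb1 and Bag3 were then above 0 (0.09 and 0.02). In Q22;TDP-43 against Q22, 0 of 9 were called (0% of all genes) and 0 had an unadjusted p under 0.05 (4.12% of all genes), while Hspa1b and Ahsa2 were higher without overlap and 0 lower (4.92% and 4.96% of all genes).

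**Figure D3:**
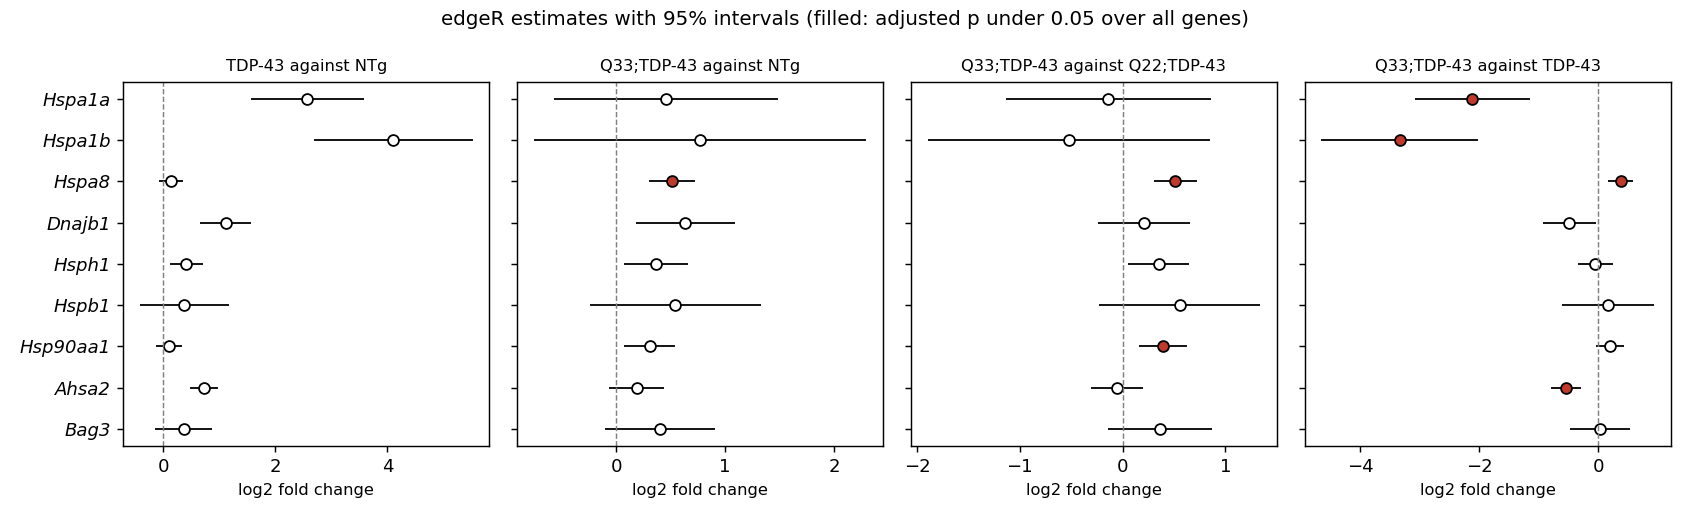
EdgeR estimates of the log2 fold change (x axis) with 95% intervals for the 9 genes (rows) in 4 comparisons, each panel with its own x scale. Filled points have an adjusted p under 0.05. In TDP-43 against NTg no point is filled, while Hspa8 is filled in all 3 comparisons of Q33;TDP-43 and Hspa1a, Hspa1b and Ahsa2 in that against TDP-43.

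Q33;TDP-43 was the genotype in which most genes of the table changed, and of the 9 genes Hspa8 rose in it. Against NTg, 1 of 9 genes was called higher and 0 lower, beside 12.1% of all genes in either direction and 5.68% higher, so the count is near the background. Hspa8 rose by 0.52 on the log2 scale (SE 0.10, adjusted p = 0.00449 with edgeR), from a mean of 1268 ± 45.9 CPM to 1814 ± 179 CPM (SD, n = 3). Dnajb1 (0.63, SE 0.22, adjusted p = 0.0630), Hsp90aa1 (0.31, SE 0.11, adjusted p = 0.0775) and Hsph1 (0.36, SE 0.14, adjusted p = 0.0936) were higher without passing. With DESeq2 all 4 of these genes were called, beside 18% of all genes. At an unadjusted p under 0.05 there were 4 of 9, beside 28.4% of all genes. In all, 5 of 9 genes lay above NTg without overlap, beside 14.4% of all genes, and 0 below, beside 15.8%.

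Against Q22;TDP-43, which by its label differs in tract length, 2 of 9 genes were called higher and 0 lower, beside 12.8% of all genes in either direction. At an unadjusted p under 0.05 there were 3 of 9 (28.2% of all genes), and the same number lay higher without overlap (14.8%) and 0 lower (14.4%). Hspa8 rose by 0.51 (SE 0.10, adjusted p = 0.00399 with edgeR) and Hsp90aa1 by 0.40 (SE 0.11, adjusted p = 0.0264), from 808 ± 53.2 to 1063 ± 95.8 CPM (SD, n = 3). The call of Hsp90aa1 was lost without Q22;TDP-43 replicate 2 or 3 or Q33;TDP-43 replicate 1 (adjusted p = 0.0600, 0.125 and 0.144). Hspa1a, Hspa1b, Dnajb1 and Ahsa2 were not called here, with Dnajb1 at 0.21 (95% interval -0.24 to 0.66), Hspa1a at -0.14 (-1.13 to 0.86), Hspa1b at -0.52 (-1.90 to 0.85) and Ahsa2 at -0.05 (-0.31 to 0.20).

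Against TDP-43 alone the genes split. Hspa8 rose by 0.38 (SE 0.10, adjusted p = 0.0211 with edgeR), while Hspa1b fell by 3.33 (SE 0.63, adjusted p = 0.00381), Hspa1a fell by 2.11 (SE 0.46, adjusted p = 0.00837) and Ahsa2 fell by 0.54 (SE 0.12, adjusted p = 0.00858). That is 4 of 9 genes, beside 12.6% of all genes in either direction, of which 1 rose (5.98% of all genes) and 3 fell (6.66%). At an unadjusted p under 0.05 there were 5 of 9 (28.6% of all genes). Without overlap 1 was higher (13.1%) and 3 lower (14.1%). Without TDP-43 replicate 2 the estimates were -1.67 for Hspa1b, -0.80 for Hspa1a and -0.43 for Ahsa2 (adjusted p = 0.00817, 0.0284 and 0.0254), and 16.2% of all genes were called. Hsp90aa1 then rose too, by 0.34 (adjusted p = 0.0402 with edgeR), while with library totals in place of TMM and all mice its estimate was -0.02. Without TDP-43 replicate 1 Dnajb1 fell by 0.70 (adjusted p = 0.0388). Hspa8 lost its call without TDP-43 replicate 1 (adjusted p = 0.0707), TDP-43 replicate 3 (0.0904) or Q33;TDP-43 replicate 1 (0.137). In a fit of these 2 groups alone 0 of 9 were called, beside 1.33% of all genes, with adjusted p-values of 0.0623 for Hspa1b, 0.0660 for Ahsa2, 0.0883 for Hspa1a and 0.133 for Hspa8.

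Against Q33 alone 0 of 9 genes were called, beside 0.892% of all genes (0.213% higher and 0.678% lower). At an unadjusted p under 0.05 there was 1 of 9 (17.7% of all genes), and 3 of 9 lay higher without overlap (11.4%) and 0 lower (11.3%). Hspa8 was 0.30 higher (SE 0.10, adjusted p = 0.128 with edgeR), without overlap between the mice, and Hspa1a 0.46 higher (95% interval -0.56 to 1.49). DESeq2 called Hspa8 here, beside 6.69% of all genes.

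The size of the Hspa8 rise depends on the scaling. With library totals in place of TMM, the median of all genes was -0.253, -0.246 and -0.249 in Q33;TDP-43 against NTg, Q22;TDP-43 and TDP-43. With TMM it was -0.0124, -0.014 and -0.0205. Under library totals the Hspa8 estimates were 0.27 (adjusted p = 0.0401 with edgeR), 0.28 (0.0381) and 0.15 (0.242). Hspa8 was then not called against TDP-43, and Dnajb1 was, at -0.70 (adjusted p = 0.0196). In the same scaling 20.1%, 19% and 19.8% of all genes were called.

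Mitochondrial ribosomal RNA and the neuron markers Snap25, Tubb3 and Eno2 were higher in the same group as Hspa8 and Hsp90aa1, while the neuron marker Syt1 was lower. With the mitochondrial share as a term in the fit, the Hspa8 estimate was 0.37 against NTg (adjusted p = 0.366 with edgeR), 0.38 against Q22;TDP-43 (0.274) and 0.23 against TDP-43 (0.666), and 0 of 9 genes were called in each. In that fit 0.136%, 0.354% and 0.0145% of all genes were called, so little of the table passed. The estimates against TDP-43 in that fit were -4.37 for Hspa1b and -2.97 for Hspa1a (adjusted p = 0.111 for both) and -0.67 for Ahsa2 (0.268). The share moves with the genotype, and the 2 cannot be told apart. With the caudal Hox level as a term the Hspa8 estimates were 0.53 against NTg (adjusted p = 0.0255) and 0.52 against Q22;TDP-43 (0.0106), and 0 of 9 genes were called against TDP-43, beside 1.62% of all genes, where Hspa1b had an adjusted p of 0.0555. The Hox level of Q33;TDP-43 did not overlap with that of NTg or TDP-43, so it and the genotype cannot be told apart there. The higher neuron sum in Q33;TDP-43 beside Hspa8 was not tested.

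Whether the effects of the knock-ins combine other than by addition was asked with interaction terms. Of the 9 genes 0 were called for Q33 with TDP-43 (0% of all genes), 0 for Q22 with TDP-43 (0%) and 0 for tract length with TDP-43 (0.344% of all genes, 0.0194% above and 0.325% below 0). Estimates in the Q33 term were -4.57 for Hspa1b (SE 0.94, adjusted p = 0.177 with edgeR), -2.11 for Hspa1a (SE 0.68, adjusted p = 0.255), -0.97 for Dnajb1 (SE 0.30, adjusted p = 0.245) and -0.64 for Ahsa2 (SE 0.17, adjusted p = 0.245). At an unadjusted p under 0.05 there were 4 of 9 genes in the Q33 term (13% of all genes), 5 of 9 in the Q22 term (4.01%) and 1 of 9 in the tract length term (15.2%). DESeq2 called 1 gene in the Q33 term, Ahsa2 (estimate -0.64, adjusted p = 0.0427), and 0 in the other terms, and gave no adjusted p for Hspa1a, Hspa1b and Hspb1 in the Q33 term. Without TDP-43 replicate 2 edgeR called Hspa1b in the Q33 term (estimate -2.91, adjusted p = 0.0405), beside 0.227% of all genes, and the other estimates there were -0.79 for Hspa1a, -0.61 for Dnajb1 and -0.53 for Ahsa2. In the Q22 term the estimates were -3.19 for Hspa1b, -2.06 for Hspa1a, -1.07 for Dnajb1 and -0.49 for Ahsa2, and without TDP-43 replicate 2 they were -1.53, -0.75, -0.71 and -0.38, with 0 of 9 called in either case.

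An F test over the 6 genotypes at once, added after the values were seen, called 5 of 9 genes, beside 4.16% of all genes. Since the 9 genes were also chosen with earlier results of these data known, that count is no independent evidence. They were Hspa1b (adjusted p = 0.00212 with edgeR), Hspa1a (0.00584), Ahsa2 (0.00801), Hspa8 (0.0190) and Dnajb1 (0.0462). Dnajb1 was not called in most fits that left out a mouse. With TDP-43 replicate 2 left out the test called the first 4 of these and no other, beside 7.36% of all genes, and without Q33;TDP-43 replicate 1 it called Hspa1a, Hspa1b and Ahsa2, beside 0.307%. Hsph1 (adjusted p = 0.159), Hsp90aa1 (0.199), Bag3 (0.475) and Hspb1 (0.690) did not pass.

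Across the 18 libraries some of the 9 genes went together closely and others did not. Hspa8 and Hsp90aa1 had the highest value, with a Pearson r of log2 CPM of 0.92 (permutation p = 1e-05, the smallest that 100000 resamples give; adjusted over the 36 pairs of genes 0.00012) and a Spearman rho of 0.91 (permutation p = 1e-05). Leaving out the 2 libraries farthest from the median of Hspa8 gave r = 0.92. Within genotypes, after subtracting group means, r was 0.93. Hspa1a and Ahsa2 followed each other with r = 0.90 (permutation p = 1e-05, adjusted 0.00012) and rho = 0.82 (permutation p = 5e-05), r = 0.84 without the 2 farthest libraries, 0.91 without TDP-43 replicate 2 and 0.69 within genotypes.

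Some pairs rest on TDP-43 replicate 2. Hspa1a and Hspa1b had r = 0.89 (permutation p = 0.00014, adjusted 0.00084) with rho = 0.54 (permutation p = 0.0224, adjusted 0.0503), r = 0.50 without the 2 libraries farthest from the median of Hspa1a and 0.66 without TDP-43 replicate 2. Hspa1a and Dnajb1 had r = 0.74 (permutation p = 0.00353, adjusted 0.00978), 0.44 without the 2 farthest libraries and 0.38 without TDP-43 replicate 2. Hspa1a and Hspa8 had r = 0.20 (permutation p = 0.417) and rho = 0.08 (permutation p = 0.761), with r = 0.04 without TDP-43 replicate 2. Within genotypes r was 0.59 with that mouse included, and the value within genotypes without it was not computed. Hspb1 and Bag3 had r = 0.84 (permutation p = 5e-05, adjusted 0.00036), rho = 0.72 (permutation p = 0.00111) r = 0.78 without the 2 farthest libraries and 0.80 within genotypes. Both also went with Hsp90aa1, at r = 0.69 for Hspb1 (permutation p = 0.00124, adjusted 0.00432; rho = 0.78, permutation p = 0.00023) and r = 0.68 for Bag3 (permutation p = 0.00196, adjusted 0.00588; rho = 0.69, permutation p = 0.00234). Without the 2 farthest libraries these were r = 0.60 and 0.83. All 36 values of r were positive and 20 exceeded 0.5, against 12 without TDP-43 replicate 2; 20 had an adjusted p under 0.05, and 15 by rho. All values share the same library totals and scaling.

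**Figure D4:**
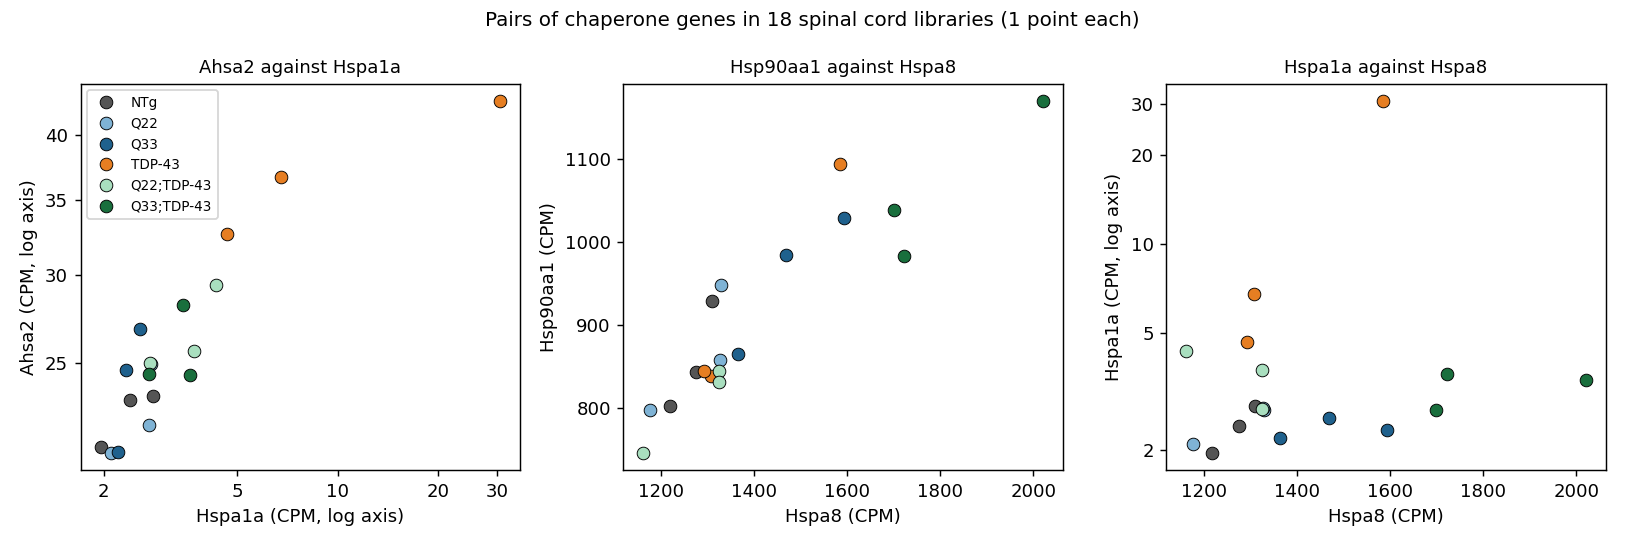
CPM of pairs of genes in the 18 libraries, 1 point a mouse, coloured by genotype (logarithmic axes where marked). Ahsa2 goes up along with Hspa1a to the 3 TDP-43 mice, Hsp90aa1 along with Hspa8 to a Q33;TDP-43 mouse, and Hspa1a against Hspa8 shows the TDP-43 and Q33;TDP-43 mice on separate arms.

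By likeness over the 18 libraries, with log2 CPM of 16268 genes at a mean of 1 CPM or more, the genes nearest to the mean of the 9 were Dnaja1 (r = 0.90), Sap30 (0.87), St13 (0.82), Taf12 (0.81) and Manf (0.81). Dnaja1 encodes another J-domain partner of HSP70, St13 the HSP70 interacting protein Hip, and Manf a protein of the endoplasmic reticulum. Dnaja1 had 80.1 ± 1.98 CPM in NTg, 93.0 ± 18.9 in TDP-43 and 101 ± 5.83 in Q33;TDP-43 (SD, n = 3). Without TDP-43 replicate 2 the first 5 were Gfod2, Calr, Mia2, Ttll12 and Fkbp4, none of them among the former 5. Sap30 (r = 0.846) and Dnaja1 (0.838) then stood close to Fkbp4 (0.848), and St13, Taf12 and Manf had 0.749, 0.751 and 0.752.

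Nearest to the summed Hspa1a and Hspa1b counts were Ccdc117 (r = 0.84, also 0.84 without TDP-43 replicate 2), P4ha1 (0.84 and 0.76), Tent5a (0.78 and 0.51), Plod1 (0.76 and 0.63) and the gene model Gm37082 (0.72 and 0.59). P4ha1 and Plod1 encode enzymes that hydroxylate collagen. Ccdc117 had 17.03 ± 2.25 CPM in TDP-43 against 10.8 ± 1.17 in NTg (SD, n = 3), with 14.97 CPM as the lowest TDP-43 mouse and 11.9 CPM as the highest NTg mouse. P4ha1 had 55.4 ± 11.9 against 31.4 ± 3.47 CPM. Ccdc117 was again first without TDP-43 replicate 2, followed by Tle1, Banp, Aoc2 and Cfp. These r values describe a choice of the highest among many genes and carry no p.

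The wider chaperone system was read from 9 lists of 101 further genes, of which 98 were tested. The lists were chosen with earlier results of these data known, so their counts and medians, here and below, are no independent evidence. In TDP-43 against NTg, 0 of the 98 were called in either direction, with a median estimate of 0.12 beside 0.01 over all genes. No gene of the table was called in this comparison, either with all mice or without TDP-43 replicate 2. Estimates for the endoplasmic reticulum chaperones, 15 genes, had a median of 0.29, the highest of the 9 lists, and the mitochondrial chaperones the lowest, 0.03.

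In Q33;TDP-43 against NTg, 15 of the 98 rose and 1 fell, beside 5.68% higher and 6.39% lower of all genes, with a median of 0.24 beside -0.01. Given how the lists were chosen, these counts are no independent evidence of a rise across the chaperones. The lists were read only in the main fit with TMM. With library totals the median of all genes in this comparison was -0.253. With the mitochondrial share in the fit 0.136% of all genes were called. How many of the 98 would stay called in those fits was not tested. Of the 14 genes of the CCT chaperonin, which folds actin and tubulin, and its partner prefoldin, 5 rose, led by Cct7 (0.49, SE 0.10, adjusted p = 0.00658 with edgeR), Cct5 (0.49, 0.00797) and Cct8 (0.41, 0.00970). In the list of BAG genes and other nucleotide exchange factors, which also held St13, 1 of 8 rose, Bag5 (0.42, SE 0.09, adjusted p = 0.00551). In the HSP70 and HSP110 family, without the genes described above, 2 of 8 rose, Hspa4l (0.38, adjusted p = 0.0180) and Hspa12a (0.45, 0.0337), and Hspa2 fell by 0.50 (0.0298). The HSP90 list had 2 of 14 higher, Ppp5c (0.39, 0.0351) and Fkbp4 (0.50, 0.0378). Mitochondrial chaperones had 2 of 11 higher, Hspe1 and Hspd1 (0.47 and 0.39), and endoplasmic reticulum chaperones 3 of 15, Calr, Hspa5 and Manf (0.36, 0.35 and 0.42). None of 15 J-domain genes, 5 small heat shock genes or 8 genes listed as heat shock factors and regulators, Serpinh1 among them, was called.

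Against Q22;TDP-43 again 15 of 98 rose and 1 fell, beside 6.67% higher and 6.17% lower of all genes. For the same reason the counts here are no independent evidence. With library totals the median of all genes was -0.246 here, and the lists were not read in that fit. CCT and prefoldin had 7 of 14 higher, led by Cct8 (0.46, SE 0.09, adjusted p = 0.00467 with edgeR), Cct6a (0.37, 0.0205) and Cct5 (0.39, 0.0241). Bag5 rose by 0.42 (0.00507), from 32.6 ± 2.43 to 43.5 ± 2.76 CPM (SD, n = 3). Hspa4l (0.37, 0.0174), Hspa12a (0.50, 0.0192), Dnajc5 (0.29, 0.0209), Ptges3 (0.32, 0.0449), Hspa5 (0.36, 0.0260), Hspa9 (0.33, 0.0407) and Hspd1 (0.41, 0.0407) were also higher, and Hspa2 fell by 0.60 (0.0110). The rises are of the size seen for Hspa8 and Hsp90aa1. Against TDP-43, 8 of 98 rose and 3 fell, beside 5.98% higher and 6.66% lower of all genes. The falls were Hspa2 (-0.57), Pdia4 (-0.49) and Serpinh1, the collagen chaperone HSP47 (-0.74, SE 0.20, adjusted p = 0.0228), which averaged 10.3 ± 2.55 CPM in TDP-43 and 6.21 ± 1.15 CPM in Q33;TDP-43. Against Q33, 0 of 98 were called.

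**Figure D5:**
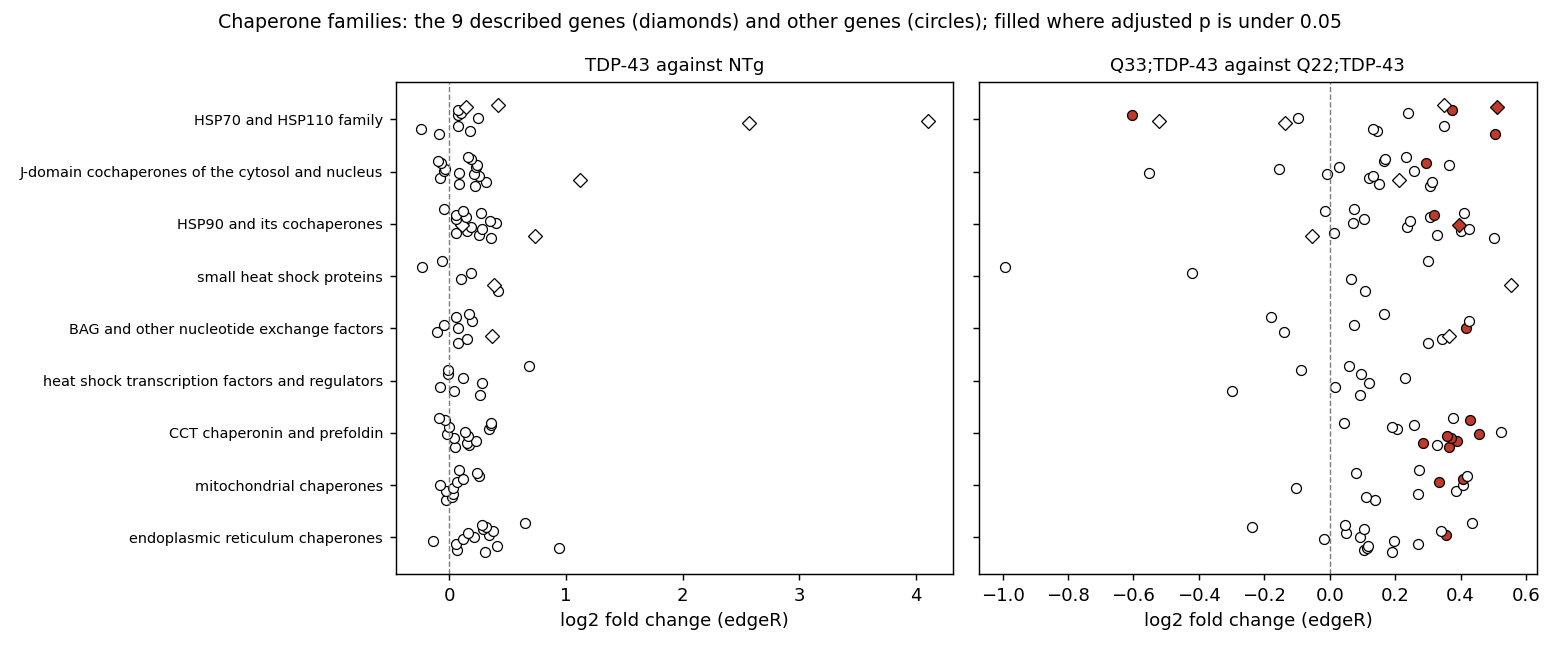
EdgeR log2 fold changes (x axis) of the genes in 9 chaperone lists (rows), for TDP-43 against NTg (left) and Q33;TDP-43 against Q22;TDP-43 (right). Diamonds are the 9 genes described here and circles the other genes; filled symbols have an adjusted p under 0.05. On the left Hspa1a and Hspa1b lie apart at 2.57 and 4.11 with no symbol filled, and on the right 7 CCT genes, Hspa8 and Hsp90aa1 are among the filled symbols.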

How the data were processed

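Total RNA of whole spinal cord was depleted of ribosomal RNA and sequenced as stranded pairs, per the labels' protocols, and reads were trimmed with Trim Galore 0.4.1 and aligned to mm10 with TopHat2, per the submitters' processing notes. The deposited values are raw counts per gene made with featureCounts 1.6.1 by strand on GENCODE vM19, per the file headers. The headers name no option for reads that map to several places. Gene symbols were matched for 54409 of 54446 IDs. Low-count genes were dropped with filterByExpr, and edgeR 4.0.16 (R 4.3.3) fitted 20635 genes in all 18 libraries with a term per genotype, TMM scaling and Benjamini-Hochberg adjustment. There were 11 comparisons of genotypes and 3 interactions. DESeq2 1.42.0, other scalings, no filter, library properties in the fit and leaving out each mouse were alternatives, and an F test over all genotypes was added after the values were seen. The fit was tested on simulated data.

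The 9 genes and all lists were chosen with earlier results of these data known. Other genes named are up to 3 per chaperone list and comparison with the smallest adjusted p under 0.05, and the 5 most correlated with the 9 genes' mean or with the summed Hspa1a and Hspa1b counts. Further members of a short list of calls, marker genes and the genes closest without TDP-43 replicate 2 were named after their values were seen. Depth was 16061359 to 30978678 counts, and 3 counts correspond to at most 0.187 CPM. Intervals on shares cover counting error only. The libraries come from separate mice; no litter or batch is given in the labels. Shared stretches were searched in reference transcripts of a GENCODE release other than the one counted.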

Additional observations from a re-analysis of the deposited data

How the results depend on the processing

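No paired analysis was possible because the labels carry animal numbers that no 2 genotypes share, and replicate numbers were given in accession order. The causes of the changes below were not tested, including where fewer libraries entered. The number of the 9 genes called moved as follows, with the share of all genes called in the same fit in parentheses. With library totals in place of TMM it was 1 in Q33;TDP-43 against Q22;TDP-43 (19%) and 4 for any genotype (7.48%), and against TDP-43 it stayed at 4 (19.8%) with Dnajb1 called and Hspa8 not. With no filter on low counts it was 3 in Q33 against NTg (1.04%), 5 in TDP-43 against NTg (0.214%), 1 in Q22;TDP-43 against NTg (0.0994%), 3 in Q22;TDP-43 against TDP-43 (0.125%), 4 and 3 in the Q33 and Q22 interactions with TDP-43 (1.36% and 0.492%), and 9 for any genotype (7.68%). In that setting Q33;TDP-43 had 5 against NTg (8.12%), 3 against Q22;TDP-43 (7.94%) and 5 against TDP-43 (8.23%). With both Hspa1 copies summed into 1 gene it was 3 against TDP-43 (12.6%) and 4 for any genotype (4.15%), and with the Y-linked level in the fit 4 for any genotype (4.25%). With the mitochondrial ribosomal RNA share in the fit it was 0 in Q33;TDP-43 against NTg, Q22;TDP-43 and TDP-43 (0.136%, 0.354% and 0.0145%), and 2 for any genotype (0.0194%). With the caudal Hox level it was 0 against TDP-43 (1.62%) and 3 for any genotype (0.436%). With only the groups compared it was 2, 1 and 0 in Q33;TDP-43 against NTg, Q22;TDP-43 and TDP-43 (8.11%, 7.28% and 1.33%). With DESeq2 it was 4 in TDP-43 against NTg (0.0291%), 4 in Q33;TDP-43 against NTg (18%), 1 in Q33;TDP-43 against Q33 (6.69%) and 1 in the Q33 interaction (1.89%).

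Leaving out each mouse gave 0 to 3 in TDP-43 against NTg (at most 0.0142%), 1 to 2 in Q33;TDP-43 against NTg (2 without NTg replicate 1, 6.22%) and 1 to 2 against Q22;TDP-43 (1 without Q22;TDP-43 replicate 2 or 3 or Q33;TDP-43 replicate 1; 6.58%, 3.77% and 3.39%). It gave 3 to 5 against TDP-43 (3 without TDP-43 replicate 3 or Q33;TDP-43 replicate 1, 3.51% and 2.6%; 5 without TDP-43 replicate 2, 16.2%), 0 to 1 in the Q33 interaction (1 without TDP-43 replicate 2, 0.227%) and 3 to 5 for any genotype (3 without Q33;TDP-43 replicate 1, 0.307%). No estimate called with all mice and TMM in edgeR changed its sign under these alternatives. Hsp90aa1 in Q33;TDP-43 against TDP-43, called only without TDP-43 replicate 2 (0.34), had -0.02 with library totals. Depth limits Hspa1b most, with 10 to 51 counts outside TDP-43.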
